A study of Mus musculus with 18 samples.

Results

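RNA bound to tagged ribosomes was compared between CGG90 mice of 12 and of 8 weeks of age. CGG90 mice carry an Fmr1 transgene with 90 CGG repeats. The 6 libraries were chosen by their titles, 3 labelled CGG90Fmr1 12 weeks and 3 labelled CGG90Fmr1 8 weeks, out of 18 libraries that crossed 2 genotypes with 3 ages (4, 8 and 12 weeks). Each library was a pool of the cerebella of 4 mice, 2 males and 2 females, and was hybridised to 1 expression array. All mice were F1 offspring with equal parts of C57B6 and FVB background, and all of them, wild type included, carried the L7/Pcp2 eEGFP-L10a transgene. This transgene marks ribosomes with a green fluorescent protein fused to the ribosomal protein L10a. CGG90 mice were in addition hemizygous for the L7CGG90Fmr1 transgene, and the design holds no mice with a short-repeat form of that transgene.

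Purkinje cells are the large inhibitory neurons that carry the output of the cerebellar cortex, and their loss is a hallmark of fragile X-associated tremor/ataxia syndrome. In that disorder an expanded CGG repeat in the untranslated leader of FMR1 is transcribed into RNA that binds proteins and is translated into repeat peptides. In this mouse the L7 (Pcp2) promoter drives both the repeat transgene and the ribosome tag, so both are limited to cells in which that promoter is active. Pulling down tagged ribosomes enriches the messages that those cells translate, and some RNA of the surrounding tissue comes along.

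The 6 libraries carry array numbers of 1 consecutive run, but another number in their titles is shared by all libraries of an age, so age and that number cannot be told apart. Replicates 1 and 2 at 12 weeks and replicate 1 at 8 weeks had the same immunoprecipitation date, and the other 3 libraries had a date each. Values are log2 levels per probe set. One probe set was used per gene, and 10067 genes reached a log2 level of 4 in at least 3 of the 18 libraries and were tested. Pearson's r across these genes, which are not independent replicates, was 0.891 to 0.923 among the 8-week libraries and 0.911 to 0.949 among the 12-week libraries. Replicate 3 at 8 weeks and replicate 3 at 12 weeks correlated at 0.971, above all 18 same-group pairs in the series, of which the highest reached 0.957. That was not particular to these libraries, as the highest same-group pair ranked 20 of 153 pairs, behind pairs of different groups. Replicate 3 at 12 weeks correlated at 0.973 with wild-type replicate 2 of 4 weeks and at 0.970 with wild-type replicate 1 of 8 weeks. Library pools were the unit of replication, so p-values measure the spread between pools.

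Promoter sequences of 3 genes are shown as background, and their relation to the differences between ages was not tested. The Pcp2 promoter is of the gene whose regulatory sequence drives the tag and the transgene, the Fmr1 promoter is the endogenous one that the transgene does not use, and Cyb5rl is the gene that passed the test between ages. Each is the 250 bases before the gene's start in RefSeq (GRCm38.p6), written 5′ to 3′ on the gene's strand. Capitals mark AGGTCA, the core motif of nuclear receptors such as Rora, searched on both strands (reverse complement TGACCT). The Pcp2 window is chr8:3625548-3625797 on the minus strand, the Fmr1 window chrX:68678291-68678540 on the plus strand and the Cyb5rl window chr4:107066744-107066993 on the plus strand.
Pcp2: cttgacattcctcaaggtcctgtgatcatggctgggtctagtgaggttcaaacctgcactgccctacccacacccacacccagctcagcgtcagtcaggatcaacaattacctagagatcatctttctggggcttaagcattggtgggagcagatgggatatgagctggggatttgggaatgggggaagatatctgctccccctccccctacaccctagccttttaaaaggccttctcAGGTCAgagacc
Fmr1: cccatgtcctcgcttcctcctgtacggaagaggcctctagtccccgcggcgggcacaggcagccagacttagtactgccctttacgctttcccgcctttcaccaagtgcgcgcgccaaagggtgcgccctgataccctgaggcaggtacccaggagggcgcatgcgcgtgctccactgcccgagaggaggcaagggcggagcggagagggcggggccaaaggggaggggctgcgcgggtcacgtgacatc
Cyb5rl: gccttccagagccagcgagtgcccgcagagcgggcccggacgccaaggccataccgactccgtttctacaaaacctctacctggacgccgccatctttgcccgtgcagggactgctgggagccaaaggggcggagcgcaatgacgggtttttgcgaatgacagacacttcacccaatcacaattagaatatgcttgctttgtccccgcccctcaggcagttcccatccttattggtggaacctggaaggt
The motif was found once in the Pcp2 window, 12 bases before the start, and was not found in the other two windows. It was present in 3729 of 27025 RefSeq promoter windows of the same length (13.8%). The Fmr1 window held 21 CpG dinucleotides and 7 CGG triplets in 67.2% GC, the Pcp2 window 1 CpG dinucleotide and 0 CGG triplets in 52.8% GC.

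Fmr1, the gene whose message the transgene adds, did not follow the labels in the older group. At 8 weeks its level was log2 11.01, 11.66 and 11.90 in replicates 1, 2 and 3. At 12 weeks it was 7.10 in the library labelled replicate 1, 6.03 in the library labelled replicate 2 and 12.01 in replicate 3. Only replicate 3 at 12 weeks was at the level of the transgenic libraries of 8 weeks, and of those of 4 weeks (mean 11.63). The libraries labelled replicates 1 and 2 at 12 weeks lay in the range of the wild-type libraries, whose means were 7.35 at 8 weeks and 7.93 at 12 weeks. Fmr1 was therefore 3.14 lower on average at 12 weeks (SE 1.11, limma, adjusted p = 0.668 by Benjamini-Hochberg; exact two-sided permutation p = 0.4, n = 3 and 3), where 0.1 is the smallest p that 3 against 3 allows. Replicate 3 at 12 weeks taken alone was 0.49 above the 8-week mean. Without that library the difference was -4.96 (limma, adjusted p = 0.0140). That fit keeps only the libraries labelled replicates 1 and 2 at 12 weeks, whose low Fmr1 was already seen, so its p-value adds no support. The second brightest of the 3 Fmr1 probe sets was also lowest in the libraries labelled replicates 1 and 2 at 12 weeks (difference -1.93, exact permutation p = 0.4, n = 3 and 3). There the library labelled replicate 1 was at 6.82, above the wild-type range of 4.82 to 6.42, and the library labelled replicate 2 was at 5.06. The dimmest was 0.81 higher at 12 weeks (exact permutation p = 0.3, n = 3 and 3). Because of this, values from replicate 3 alone are set beside the main results below.

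**Figure D1:**
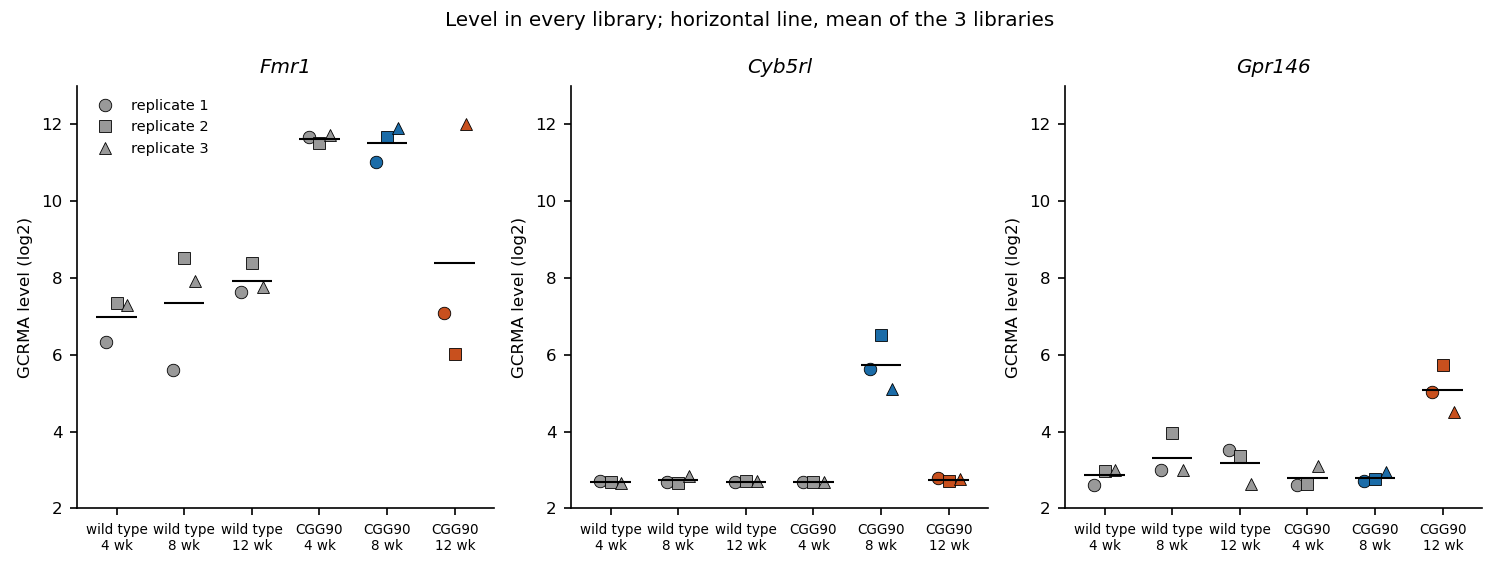
Log2 level (vertical axis) of Fmr1, Cyb5rl and Gpr146 in each of the 18 libraries by genotype and age (horizontal axis); marker shapes are replicate numbers and horizontal lines the means of 3 libraries. Fmr1 is at 7.10 and 6.03 in the libraries labelled CGG90 12 weeks replicates 1 and 2 and at 12.01 in replicate 3, Cyb5rl stands above 5 at 8 weeks in CGG90, and Gpr146 above 4 at 12 weeks in CGG90.

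Markers of the tagged cells were high at both ages. Pcp2, which encodes a Purkinje cell modulator of G protein signalling, was at 15.01, 14.94 and 14.91 at 8 weeks and at 14.87, 14.81 and 14.82 at 12 weeks. All 12-week libraries lay just below all 8-week libraries, by 0.12 on average (limma, adjusted p = 0.939). Calb1, a calcium buffer that defines Purkinje cells, had means of 13.33 ± 0.19 and 13.22 ± 0.29 (SD, n = 3 each), and Pvalb, another calcium buffer, 14.88 ± 0.09 and 14.83 ± 0.03. Rpl10a, the gene of the tagged ribosomal protein, differed by -0.17 (limma, adjusted p = 0.935). The mean of 20 Purkinje markers was 12.51 to 12.78 at 8 weeks and 12.39 to 12.70 at 12 weeks, so the groups overlapped.

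Between 8 and 12 weeks, 1 gene passed the test and it was lower at 12 weeks. With limma and Benjamini-Hochberg adjustment at 0.05, 0 of 10067 genes were higher and 1 was lower (0.00993%). At an unadjusted p under 0.05, 331 genes were higher (3.29%) and 297 lower (2.95%), 628 in all (6.24%). If no gene differed, 503 would be expected at that level. By the order of labels alone, 3 against 3 libraries separate completely with a probability of 0.1. All 3 libraries of an age lay beyond all 3 of the other for 1052 genes (10.4%), 557 of them higher at 12 weeks (5.53%) and 495 lower (4.92%). Of these, 372 differed by at least 2-fold (3.7%), 215 higher (2.14%) and 157 lower (1.56%), and after quantile normalization the split was 189 to 213. Over all tested genes the median difference was 0.00067, and 5040 were higher (50.1%). The median SE of a difference was 0.47 and the median SD between libraries 0.51 at 8 weeks and 0.47 at 12 weeks. Taking replicate 3 alone as the 12-week value kept the sign of 7145 genes. Of all 10067 genes 6314 were then higher and 3753 lower, with a median of 0.16. The counts depended on replicate 3 of either age. Without CGG90 replicate 3 at 8 weeks 10 genes were called higher and 11 lower, Cyb5rl, Amer3, Arhgap42 and Zmym3 among them. Without CGG90 replicate 3 at 12 weeks 2 were called higher and 2 lower, and the latter were Cyb5rl and Fmr1. Without wild-type replicate 2 at 8 weeks or replicate 3 at 12 weeks 1 gene, Gpr146, was called higher.

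**Figure D2:**
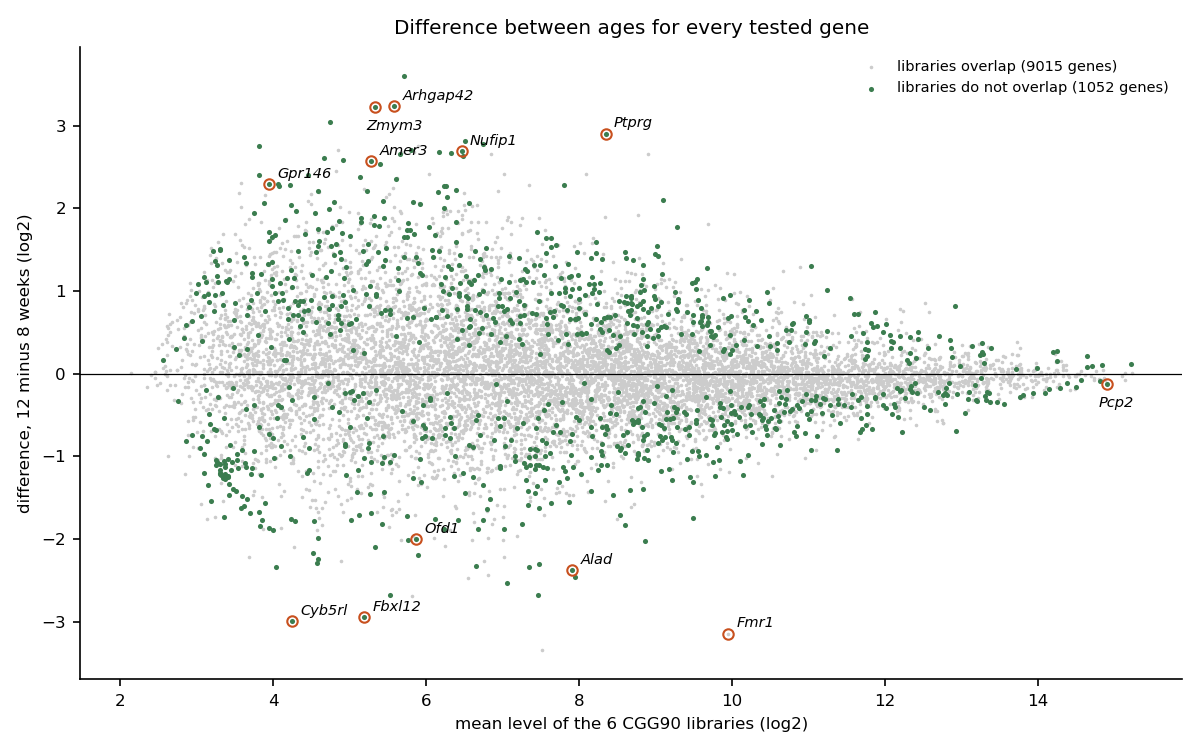
Difference between 12 and 8 weeks in CGG90 (vertical axis, log2) against the mean level of the 6 libraries (horizontal axis, log2) for the 10067 tested genes. Green points are the 1052 genes whose 2 ages do not overlap, and circles mark genes named in the text; spread is widest at low levels, and Fmr1 lies apart at -3.14.

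Cyb5rl, which by its name is a relative of the reductases that pass electrons from NADH to cytochrome b5, was the gene that fell. Its level was 5.62, 6.51 and 5.09 in the 8-week libraries and 2.78, 2.71 and 2.76 in the 12-week libraries. All 3 libraries of 8 weeks were well above those of 12 weeks, which sat within 0.1 of each other near the median of all probe sets of a library. The fall was 2.99 (SE 0.27, 95% interval -3.58 to -2.41; limma, adjusted p = 0.000199). The gene was tested only because the 3 CGG90 libraries of 8 weeks passed the filter on low values, so they had to differ from the other groups. Replicate 3 at 12 weeks alone gave -2.98, and the difference on the shared immunoprecipitation date was -2.88. In the other 4 groups of the series the means were 2.69 at 4 weeks and 2.73 and 2.69 at 8 and 12 weeks in wild type, and 2.69 at 4 weeks in CGG90. Cyb5rl was thus above the level of the other groups in CGG90 at 8 weeks, not below it at 12 weeks. Its SD was 0.71 at 8 weeks and 0.04 at 12 weeks in CGG90. A limma fit to the 6 libraries alone, which takes no spread from the other 4 groups, did not call it (adjusted p = 0.930). The call was also lost in limma without the libraries labelled replicates 1 and 2 at 12 weeks (adjusted p = 0.0833), with the date as a fixed block (0.0653), and with the replicate block in the fit to 6 libraries (0.880). The gene has 1 probe set on the array.

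A group of genes was near the bottom of the scale at 1 age and above it at the other. They were chosen after their values were seen, as genes at log2 4 or above in every library of an age and under 4 in every library of the other. There were 10 such genes at 8 weeks and 16 at 12 weeks. Gpr146, an orphan G protein-coupled receptor linked to cholesterol metabolism, was at 2.70, 2.76 and 2.94 at 8 weeks and at 5.03, 5.74 and 4.50 at 12 weeks. The choice of these genes fixed that the ages did not overlap, and the difference of 2.29 (SE 0.35) missed the threshold (limma, adjusted p = 0.0575). Gpr146 was tested only because the 3 CGG90 libraries of 12 weeks passed the filter on low values, so they had to differ from the other groups. The fits below share that limit. Replicate 3 at 12 weeks alone gave 1.70. In limma fits without 1 library it passed on leaving out CGG90 replicate 3 at 12 weeks (adjusted p = 0.0173) or at 8 weeks (0.0285), or wild-type replicate 2 at 8 weeks (0.0277) or replicate 3 at 12 weeks (0.0440). With the immunoprecipitation date as a random block its adjusted p in limma was 0.0487. Nsdhl, a sterol dehydrogenase of cholesterol synthesis, was at 2.55, 2.68 and 3.51 and then at 5.49, 5.29 and 4.85. Kdm3b, a histone demethylase, was at 3.84, 3.37 and 3.94 and then at 5.07, 5.93 and 5.39. Both were higher in all 12-week libraries, with differences of 2.30 and 1.75 that did not pass (limma, adjusted p = 0.419 for each). Means in the other 4 groups of the series were 4.96 to 6.00 for Nsdhl and 4.56 to 5.41 for Kdm3b. For both genes CGG90 at 8 weeks had the lowest group mean (2.91 and 3.715), and CGG90 at 12 weeks was at 5.21 and 5.46. In the other direction Eme1, a subunit of a nuclease that resolves DNA junctions, was at 6.19, 6.01 and 4.64 and then at 2.84, 3.60 and 3.88. Kif16b, a kinesin that moves endosomes, was at 5.54, 6.52 and 5.12 and then at 3.43, 3.02 and 3.85. Neither passed (differences -2.17 and -2.29; limma, adjusted p = 0.419 for each). For both genes CGG90 at 8 weeks had the highest group mean of the series (5.61 and 5.72).

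The 10 genes of smallest p among those that were higher in every 12-week library, at a mean level of at least 6, all missed the threshold (limma, adjusted p = 0.419). Ptprg, a receptor tyrosine phosphatase of neurons, was at 6.70, 7.28 and 6.70 at 8 weeks and at 9.84, 10.74 and 8.83 at 12 weeks. Every 12-week library was above every 8-week library, with a difference of 2.90 (SE 0.70) and of 1.93 with replicate 3 alone. Arhgap42 was at 2.24, 3.35 and 6.31 and then at 7.82, 7.11 and 6.69. Zmym3, a zinc finger protein of chromatin complexes, was at 2.73, 2.73 and 5.70 and then at 6.36, 7.96 and 6.51. In both, replicate 3 at 8 weeks was close to the 12-week libraries and the other two 8-week libraries were far below. Amer3, which binds the Wnt pathway protein Apc, was at 2.67, 3.92 and 5.39 and then at 5.87, 6.58 and 7.25. Lonp2, the peroxisomal Lon protease, was at 4.56, 4.31 and 5.29 and then at 6.17, 6.01 and 6.54. Amer3 was spread widely at both ages, whereas Lonp2 was narrow at both, and their differences were 2.57 (SE 0.59) and 1.52 (SE 0.37).

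The other five of these genes had differences between 1.18 and 1.32. Eprs, the tRNA synthetase for glutamate and proline, was at 7.90, 8.41 and 8.23 at 8 weeks and at 8.78, 10.01 and 9.70 at 12 weeks. Vps13a, a lipid transfer protein mutated in chorea-acanthocytosis, was at 6.51, 7.21 and 6.79 and then at 8.71, 8.18 and 7.57. Aak1, a kinase of clathrin adaptors, was at 7.33, 6.72 and 7.87 and then at 8.45, 8.38 and 8.64. In these 3 genes the nearest libraries of the 2 ages lay closer together than in Ptprg. Ppm1d, a phosphatase that dampens the DNA damage response, was 1.19 higher and 2010315B03Rik 1.31 higher. With replicate 3 alone the 10 differences were between 0.74 (Vps13a) and 3.26 (Amer3), and the naming rule fixed their sign.

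Of the genes lower in every 12-week library, 9 others stood beside Cyb5rl by the same rule, and none passed (limma, adjusted p = 0.419). Alad, which makes porphobilinogen in haem synthesis, was at 10.52, 8.89 and 7.88 at 8 weeks and at 6.66, 6.00 and 7.52 at 12 weeks. Replicate 3 of each age was close to the other for Alad, and replicate 1 at 8 weeks was far above. The difference was -2.37 (SE 0.62) and -1.58 with replicate 3 alone. Fbxl12, the substrate receptor of a ubiquitin ligase, was at 6.09, 8.35 and 5.55 and then at 3.64, 2.36 and 5.13. Ofd1, a protein of centrioles and the base of the cilium, was at 7.09, 7.28 and 6.24 and then at 4.33, 4.92 and 5.35. Fbxl12 varied widely at both ages (difference -2.95, SE 0.75, or -1.53 with replicate 3 alone), and Ofd1 was more even (-1.52 with replicate 3 alone). Top1mt, the mitochondrial topoisomerase, was at 8.59, 9.28 and 8.05 and then at 7.30, 6.36 and 7.61. Zswim7, which acts in homologous recombination, was at 8.19, 8.82 and 8.24 and then at 6.28, 6.99 and 7.29. Both were 1.56 lower. The others were Dhx40, a helicase (-1.88), Enox2, an NADH oxidase of the cell surface (-1.46), Bri3bp (-1.28) and Naa60, an N-terminal acetyltransferase of the Golgi (-0.84).

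**Figure D3:**
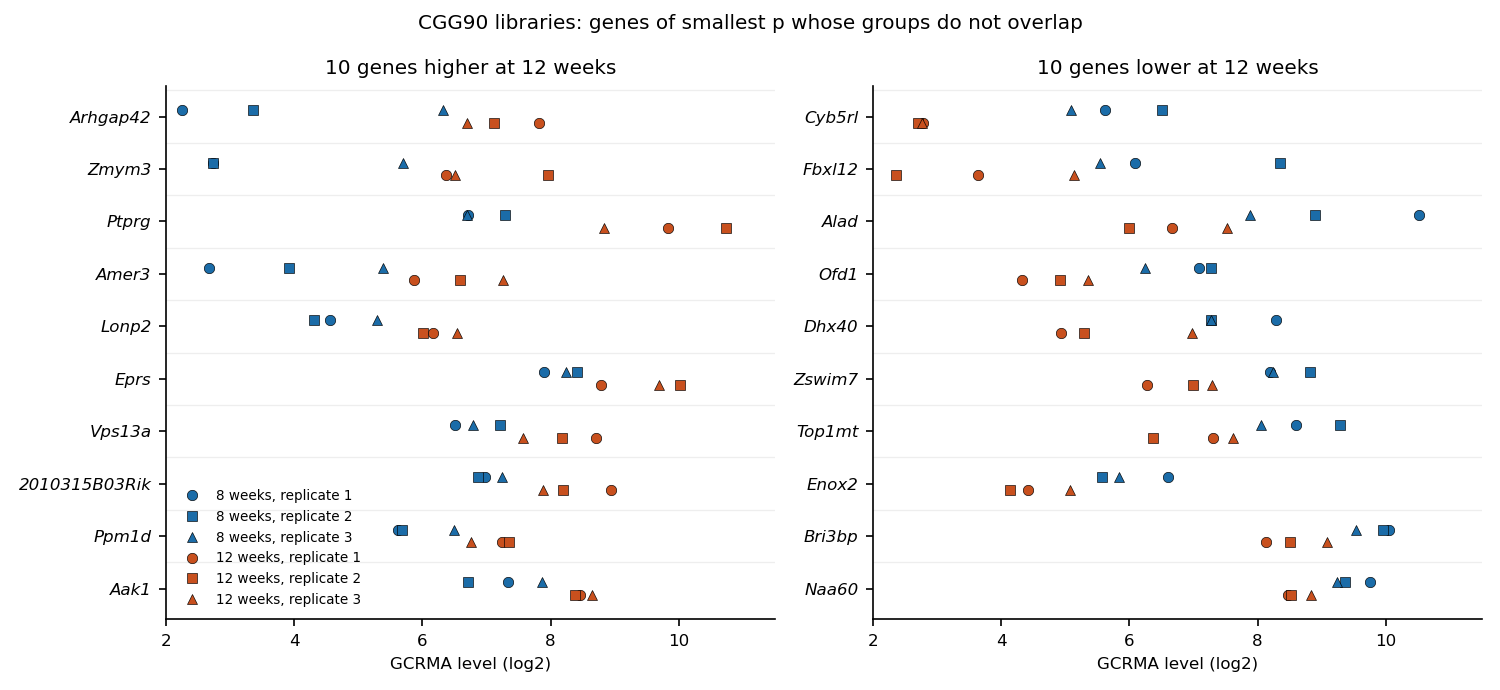
Log2 levels (horizontal axis) of the 10 genes higher and the 10 genes lower at 12 weeks by the naming rule, 1 row per gene, with blue for 8 weeks and orange for 12 weeks and marker shapes for replicates. The colours do not overlap in any row because the rule asked for that; of the 20 genes Cyb5rl passed the test.

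Proteins that bind CGG repeat RNA were mostly higher at 12 weeks, and no member passed. Of 25 tested genes, 17 were higher and 8 lower, with a median difference of 0.37 against 0.00067 over all genes. The median was 0.36 with replicate 3 alone, against 0.16 over all genes. Leaving out replicate 3 at 12 weeks left 14 of 25 higher (median 0.28), against 4513 of all 10067 genes (median -0.07). The ages did not overlap in 6 members, all of them higher (5.53% of all genes were so). Hnrnpa2b1, a ribonucleoprotein that binds the repeat, was at 12.18, 12.20 and 11.94 at 8 weeks and at 12.57, 12.44 and 12.66 at 12 weeks. Ddx5, an RNA helicase of microRNA processing, was at 11.95, 10.85 and 11.65 and then at 12.23, 12.37 and 12.12. The differences were 0.45 and 0.75 (limma, adjusted p = 0.847 and 0.831). Hnrnpk was 0.46 higher and Tra2a, a splicing regulator, 0.53 higher. With the mean over all its probe sets Tra2a was at -0.05 instead. The other two of the 6, named after their values were seen, were Hnrnph1 (0.56) and Dgcr8, the partner of Drosha that the repeat captures (0.96). In wild type the list's median difference between the same ages was -0.25, against -0.08 over all genes. The difference between genotypes was not tested for the list.

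Tardbp, which encodes an RNA-binding protein that modifies repeat toxicity in models of the disorder, was at 8.85, 9.23 and 8.87 at 8 weeks and at 9.49, 9.05 and 9.54 at 12 weeks on its brightest probe set. The groups overlapped and the difference of 0.38 did not pass (limma, adjusted p = 0.884). Its 5 probe sets disagreed in size, from 0.05 on the second brightest to 2.47 on the dimmest, which was at 2.46 to 2.55 at 8 weeks and 4.17 to 5.91 at 12 weeks (exact permutation p = 0.1, n = 3 and 3, the smallest possible). The third brightest also had ages that did not overlap, with a difference of 1.11 (exact permutation p = 0.1, n = 3 and 3). Of the 13 tested members of the FMRP interaction list, Fmr1 itself included, 7 were higher and 6 lower. Nufip1, a nuclear partner of the Fmr1 protein, was at 2.44, 6.10 and 6.81 and then at 6.95, 9.29 and 7.19. The lowest 12-week library was only just above the highest 8-week library, and the difference was 2.69 (SE 0.86; limma, adjusted p = 0.594).

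Splicing factors had 20 of 28 tested members higher and a median difference of 0.13, with 4 members higher and 1 lower whose ages did not overlap (5.53% and 4.92% of all genes). Leaving out replicate 3 at 12 weeks left 15 of 28 higher (median 0.03), against 4513 of all 10067 genes (median -0.07). Ptbp2, the neuronal polypyrimidine tract-binding protein, was at 7.41, 8.27 and 7.09 and then at 8.72, 9.25 and 8.28. Elavl4, a neuronal RNA stabiliser, was at 5.02, 4.46 and 6.34 and then at 7.99, 7.83 and 6.67. Neither passed (differences 1.17 and 2.22; limma, adjusted p = 0.673 and 0.798). Sf3a1, a subunit of the branch point complex, was -0.99 at 12 weeks, but 0.30 with the mean over its probe sets. In the microRNA list 8 of 14 were higher. Tnrc6c, which links Argonaute to silencing, was the named member and was 1.78 higher (limma, adjusted p = 0.722).

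Heat shock proteins and chaperones were higher in 20 of 23 tested members, with a median of 0.13, and no member passed. The median was 0.29 with replicate 3 alone, against 0.16 over all genes. In 4 of the 23 members the ages did not overlap, all higher (5.53% of all genes were so). Hsp90aa1, the inducible cytosolic chaperone, was at 11.55, 11.80 and 11.48 at 8 weeks and at 11.98, 12.02 and 12.55 at 12 weeks. Hspd1, the mitochondrial chaperonin, was at 10.86, 10.82 and 10.63 and then at 10.91, 11.33 and 11.15. The gap between the nearest libraries was small in both, and the differences were 0.58 and 0.35 (limma, adjusted p = 0.798 and 0.847). Hspa4 and Hspa4l, which exchange nucleotide on Hsp70 proteins, were 0.31 and 0.47 higher. The unfolded protein response had 14 of 22 members higher and a median of 0.07. Edem1, which sends misfolded glycoproteins to degradation, was the named member and was at -1.43. Autophagy and lysosome genes split 15 to 14, and proteasome and ubiquitin genes were lower in 21 of 33 (median -0.05, 0.01 after quantile normalization). With replicate 3 alone 28 of 33 proteasome and ubiquitin genes were higher (median 0.12), against 6314 of all 10067 genes (median 0.16). Lamp2, a lysosomal membrane protein, and Usp14, a proteasome-bound deubiquitinase, were 1.48 and 1.17 higher without passing (limma, adjusted p = 0.821 and 0.731).

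Cytoplasmic ribosomal proteins were mostly lower by small amounts at 12 weeks. Of 35 tested genes 29 were lower (49.9% of all genes were), with a median of -0.12, and no member passed. The median was -0.05 with replicate 3 alone, against 0.16 over all genes. The ages did not overlap in 7 of the 35, all lower (4.92% of all genes were so). Rplp2, of the ribosomal stalk, was at 13.59, 13.88 and 13.74 at 8 weeks and at 13.40, 13.22 and 13.49 at 12 weeks. Rpl7, a protein of the large subunit, was at 11.33, 11.37 and 11.31 and then at 10.85, 10.82 and 11.24. For Rpl7 replicate 3 at 12 weeks was close to the 8-week libraries, and the differences were -0.36 and -0.37 (limma, adjusted p = 0.842 and 0.847). Rpl14 was at -1.13 and Rps27 at -0.63, the former at -0.83 and the latter at -0.66 with replicate 3 alone. Translation factors did not share that direction: 17 of 27 were higher. Eif3a, the largest subunit of the factor that recruits ribosomes to messages, was at 8.92, 8.50 and 9.67 and then at 10.37, 10.31 and 10.23. Its 12-week libraries were nearly equal, and the difference of 1.28 (SE 0.37) did not pass (limma, adjusted p = 0.460). Eif4g2, a scaffold for cap-independent initiation, was 0.56 higher.

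Genes of oxidative phosphorylation were lower in 31 of 41 tested members, with a median of -0.10. With replicate 3 alone 24 of 41 were higher and the median was 0.03, against 6314 of all 10067 genes and a median of 0.16. The ages did not overlap in 9 of them, 6 lower and 3 higher (4.92% and 5.53% of all genes). Atp5g1, a subunit of the membrane ring of ATP synthase, was at 13.05, 13.39 and 13.40 at 8 weeks and at 12.59, 12.38 and 12.77 at 12 weeks. Every 12-week library was below every 8-week library, and the difference of -0.70 (SE 0.25) did not pass (limma, adjusted p = 0.668). Cox6a1 and Cox8a, subunits of cytochrome c oxidase, were at -0.18 and -0.27. Among genes of mitochondrial dynamics and antioxidant defence, Mfn2, which fuses outer membranes and causes an inherited neuropathy, was at 10.25, 10.24 and 9.59 and then at 8.97, 8.80 and 9.50. Replicates 3 of the 2 ages were close together, and the difference of -0.94 did not pass (limma, adjusted p = 0.587). In glycolysis 7 of 17 members were higher and 10 lower. The split was 11 higher and 6 lower with replicate 3 alone, when 6314 of all 10067 genes were higher.

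Signalling genes of the Purkinje cell split between directions. In the list of calcium handling and signalling through the metabotropic receptor mGluR1, 10 of 25 were higher and 15 lower, with a median of -0.05. The median was 0.22 with replicate 3 alone, against 0.16 over all genes. Prkca, a conventional protein kinase C of long-term depression, was at 5.93, 7.18 and 6.40 and then at 7.22, 7.50 and 7.53. Among voltage-gated channels 14 of 24 were lower (median -0.11). With replicate 3 alone 16 of 24 were higher (median 0.21), as were 6314 of all 10067 genes (median 0.16). Cacna1g, the T-type calcium channel whose mutations cause an inherited ataxia, was at 8.63, 8.88 and 9.01 and then at 7.02, 7.57 and 8.62. The libraries labelled replicates 1 and 2 carried most of its difference of -1.10, which was -0.22 with replicate 3 alone (limma, adjusted p = 0.821). Glutamate receptors and scaffolds split 12 to 12, genes of hereditary ataxia 11 to 10, and genes of the inhibitory synapse 9 to 6. Of 25 genes of vesicle release 16 were higher, among them Syn1 (0.59) and Syn2 (0.63), which tether vesicles, and in each of the 2 the ages did not overlap. No gene of these lists passed.

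Genes expressed in immature neurons were higher in 14 of 16 tested members, with a median of 0.48. The median was 0.30 with replicate 3 alone, against 0.16 over all genes. Dpysl3, a collapsin response mediator of growing axons, was at 2.86, 3.17 and 4.81 at 8 weeks and at 5.21, 7.85 and 5.56 at 12 weeks. Sox4, a transcription factor of early neurons named after its values were seen, was at 2.55, 2.51 and 2.47 and then at 4.64, 3.64 and 2.74. Its 12-week levels were uneven and replicate 3 was close to the 8-week libraries, so its difference of 1.17 became 0.23 with that library alone. Neither passed (limma, adjusted p = 0.659 for Dpysl3 and 0.848 for Sox4). Cytoskeletal genes were higher in 18 of 28, with Nefm, a neurofilament subunit, 0.33 higher and Ina, another filament protein, at -0.56. Among adhesion genes 19 of 28 were higher. Ncam1, the neural cell adhesion molecule, was at 9.37, 8.08 and 9.31 and then at 10.11, 10.31 and 9.63, while Nrxn2, a presynaptic adhesion protein, was at 8.50, 8.67 and 8.64 and then at 8.23, 8.19 and 8.24. The former was 1.10 higher and the latter at -0.38, and neither passed (limma, adjusted p = 0.798 and 0.838). Perineuronal net and matrix genes were higher in 11 of 14, but in 5 of 14 without replicate 2 of 8 weeks (median -0.13). Growth factors and their receptors were higher in 17 of 21, with Bmpr2, a bone morphogenetic protein receptor, 0.98 higher and Igf1 0.45 higher.

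Chromatin regulators were higher in 16 of 27 members, and Hdac2, a histone deacetylase, was at 11.04, 11.87 and 11.60 and then at 12.15, 12.09 and 12.11 (difference 0.61; limma, adjusted p = 0.798). Chd8, a chromatin remodeller, was 0.94 higher and Sirt2, a deacetylase, at -0.47. In the p53 and DNA damage list 9 of 16 were lower. With replicate 3 alone 5 of 16 were, against 3753 of all 10067 genes. Cdkn1a, the p53 target that halts the cell cycle, was at 8.44, 7.74 and 7.84 and then at 7.07, 6.35 and 7.13. Wild type had a similar value for Cdkn1a (-0.96 against -1.15 in CGG90). Clock genes were lower in 12 of 16 (median -0.17). They split 8 to 8 without the library labelled replicate 1 at 12 weeks. With replicate 3 alone 13 of 16 were higher (median 0.16), against 6314 of all 10067 genes (median 0.16). Nr1d2, a repressor of the clock, was 0.68 higher in the main comparison. Cholesterol synthesis genes were higher in 14 of 20 and fatty acid and lipid genes in 16 of 25. Immediate early genes were higher in 10 of 12, and Nr4a2, an inducible nuclear receptor, was 1.19 higher. Nuclear receptors as a list were higher in 10 of 16. Antigen presentation split 4 to 3, with B2m 0.79 higher, and the interferon response split 4 to 3. No member of these lists passed.

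**Figure D4:**
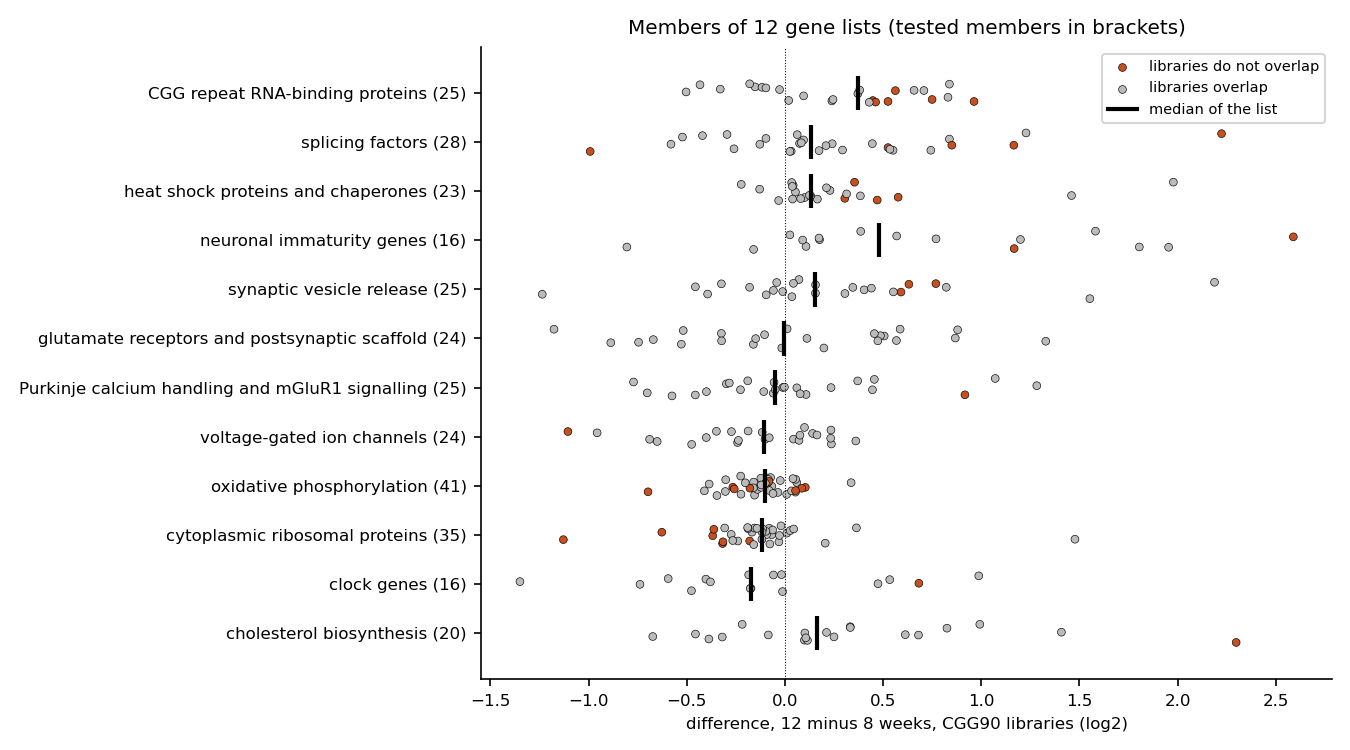
Difference between 12 and 8 weeks (horizontal axis, log2) of each tested member of 12 gene lists, with the list's median as a black bar and members whose ages do not overlap in orange. Medians are 0.37 for CGG repeat RNA-binding proteins and -0.12 for cytoplasmic ribosomal proteins, and the members of each list spread to both sides of 0.

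Markers of other cells were measured in the same libraries. Over 72 tested markers of granule cells, interneurons, glia and vessels the mean was 7.60, 6.04 and 7.89 at 8 weeks and 7.73, 7.68 and 7.56 at 12 weeks. Replicate 2 at 8 weeks was far below the other five libraries, which were alike. Of 101 such markers on the array 49 were under log2 4 in that library and 34 to 37 in the others. In RNA pulled down from pooled tissue, less RNA that comes along, fewer cells of a type and less RNA per cell cannot be told apart. Astrocyte and Bergmann glia markers were higher in 13 of 16 members (median 0.79, or 0.01 without replicate 2 of 8 weeks), and granule cell markers in 13 of 16 (median 0.30, or -0.37 without it). Oligodendrocyte markers were higher in 9 of 14 (median 0.32, or 0.05 without it). Mbp, the myelin basic protein, was at 12.30, 10.60 and 12.67 and then at 12.76, 12.77 and 12.31. Cx3cr1, the fractalkine receptor of microglia, was near the bottom of the scale in 5 libraries and at 8.78 in the library labelled replicate 2 at 12 weeks. The 7 tested microglia markers, of which Cx3cr1 is not one, split 3 higher to 4 lower (median -0.12). Their mean was 7.26, 6.08 and 6.61 in the 12-week libraries, lowest in that same library. Cldn5, of endothelial cells, was at 2.20 to 2.78 in all 6. Without replicate 2 of 8 weeks several other lists turned: 11 of 25 vesicle release genes, 12 of 27 translation factors, 12 of 28 adhesion genes, 12 of 25 fatty acid and lipid genes and 10 of 22 genes of the unfolded protein response were higher. Of all 10067 genes 4881 were higher in that setting. The median of the immaturity list was 0.11 and that of adhesion genes -0.13 without replicate 2 of 8 weeks, against 0.38 for the CGG repeat proteins and 0.19 for chaperones. With the mean of the 72 markers as a covariate in the limma fit Cyb5rl was again the 1 gene called (-2.90, adjusted p = 0.000185). The part of these markers in the differences of the lists was not tested.

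Of the 8 sex-linked genes listed, 7 were on the array and 5 were tested, and those 5 were higher at 12 weeks. Uty and Xist, which were not tested because of their low levels, were at -0.83 and -0.13. The mean of the 5 was 5.78, 6.24 and 6.49 at 8 weeks and 7.80, 7.85 and 7.25 at 12 weeks. The ages did not overlap, and replicate 3 at 12 weeks alone was 1.08 above the 8-week mean. Kdm6a, a histone demethylase on the X chromosome, was at 6.18, 2.59 and 4.58 and then at 6.40, 8.59 and 6.49. Eif2s3y, an initiation factor gene on the Y chromosome, was at 3.21, 7.55 and 5.29 and then at 7.72, 7.86 and 5.45. Levels varied widely among the 8-week pools, although the labels give the same number of males and females in each. Kdm6a did not pass (difference 2.71; limma, adjusted p = 0.649), and the share of RNA from either sex in a pool was not tested.

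**Figure D5:**
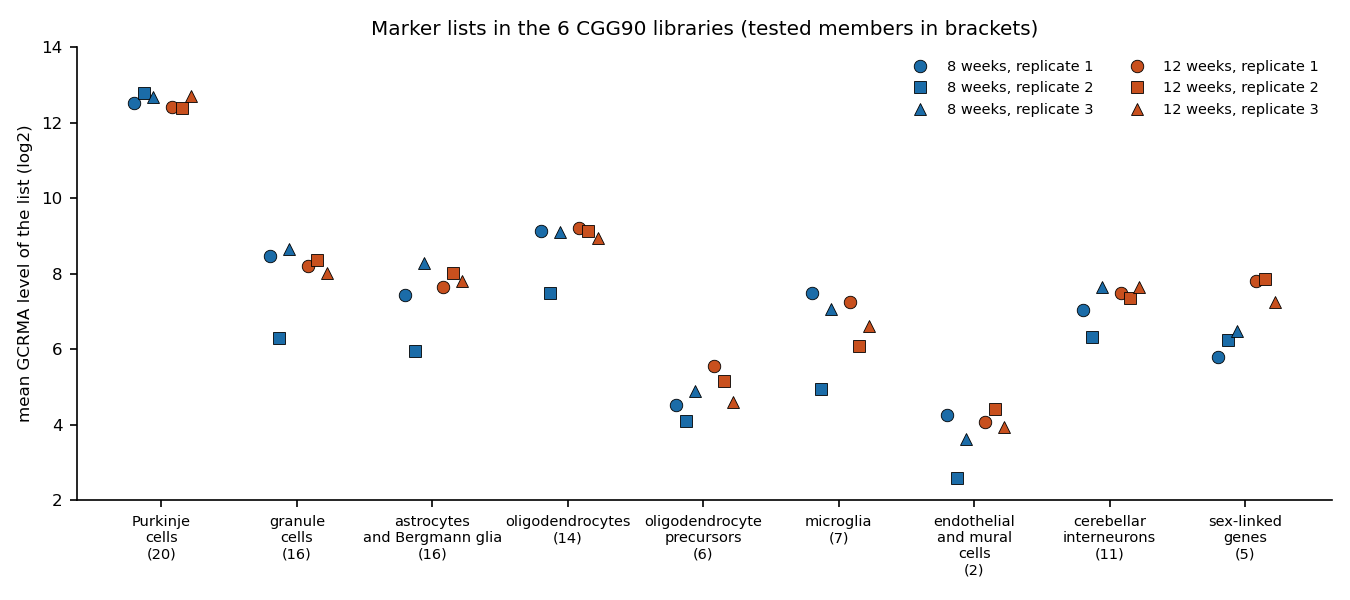
Mean log2 level (vertical axis) of the tested genes of 9 marker lists (horizontal axis, number of genes in brackets) in the 6 CGG90 libraries, blue for 8 weeks and orange for 12 weeks. Replicate 2 at 8 weeks is the lowest library for granule cells (6.31), astrocytes (5.96), oligodendrocytes (7.48) and microglia (4.94), and the sex-linked genes are higher in every 12-week library.

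Wild-type libraries of the same ages served as the comparison for age without the repeat transgene. In wild type 0 of 10067 genes passed between 12 and 8 weeks with limma, 567 had an unadjusted p under 0.05 (5.63%) and 1000 did not overlap (9.93%). These shares are close to those of CGG90. Wild-type list medians with the sign of CGG90 were 0.27 for immaturity genes, 0.36 for immediate early genes and -0.16 for oxidative phosphorylation. Cytoplasmic ribosomal proteins were at -0.07, against -0.08 over all genes. Chaperones (-0.20) and splicing factors (-0.05) had the sign opposite to CGG90, as did some other lists. No list was tested for a difference between genotypes. The difference between genotypes in the 12 minus 8 weeks difference passed for 1 gene (0.00993%), and 533 had an unadjusted p under 0.05 (5.29%). The gene was Cyb5rl, at -0.03 in wild type against -2.99 in CGG90, a difference of -2.96 (SE 0.39; limma, adjusted p = 0.0175). It passed the filter on low values only through the CGG90 libraries of 8 weeks, so a difference from the other groups was built in. The call was lost without both libraries labelled CGG90 12 weeks replicates 1 and 2 (limma, adjusted p = 0.685). It was lost with the replicate block (0.0681), the date as a fixed block (0.262), quantile normalization (0.0522) and a trended, robust variance prior (0.455). It was also lost on leaving out any 1 of 6 libraries: replicate 1 of CGG90 at either age, replicate 1 or 3 of wild type at 12 weeks, and replicate 1 or 2 of wild type at 8 weeks. Without wild-type replicate 2 at 12 weeks or replicate 3 at 8 weeks 2 genes were called lower, and without CGG90 replicate 2 or 3 at 12 weeks or replicate 3 at 8 weeks 1 gene was called higher.

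Other genes of small p in that test had differences of opposite sign in the 2 genotypes, and none passed. They were picked by their small p for the difference between genotypes, a choice that favours opposite signs. Nop14, a factor of small ribosomal subunit assembly, was at 5.78, 5.83 and 6.29 and then at 7.45, 6.48 and 6.78 in CGG90. In wild type it was at 7.09, 7.02 and 7.70 and then at 5.65, 5.98 and 4.80. The ages did not overlap in either genotype, in opposite order, and the difference between genotypes was 2.74 (limma, adjusted p = 0.676). Snhg5, a host transcript of small nucleolar RNAs, had the same arrangement, 1.15 in CGG90 and -1.01 in wild type (limma, adjusted p = 0.676). Ercc4, a DNA repair nuclease, was at 6.07, 5.89 and 6.42 and then at 4.28, 3.85 and 5.21 in CGG90, and its difference was 0.87 in wild type. For Ddn, the postsynaptic protein dendrin, the CGG90 libraries overlapped and the wild-type range was 3.05 to 3.55 at 8 weeks and 6.56 to 8.05 at 12 weeks. Tti1, which stabilises large kinases of DNA repair and growth, was at -0.84 in CGG90 and 2.45 in wild type, and Sft2d2 at 1.40 and -3.13. With replicate 3 alone as the 12-week CGG90 library, Nop14 was 0.82 above the 8-week mean, Snhg5 0.35 above it and Ercc4 at -0.92.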

How the data were processed

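The deposited values are log2 expression levels per probe set and library, which the authors made with GCRMA, per the submitters' processing notes. This method models background from the bases of each probe, equalises the arrays and combines the probes of a set. The set of arrays it was run on is not given in the sources used here. Of 45101 probe sets, 34958 had 1 gene symbol, 932 had several, 9211 were not listed and 64 were array controls and left out. Of the probe sets with 1 symbol the one with the highest mean over the 18 libraries stood for each of 18193 genes. The 10067 genes at a log2 level of at least 4 in at least 3 libraries were tested. Library medians were 2.56 to 2.72, and the number of arrays limits the precision.

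Groups came from the sample labels. Tests used limma (version 3.58.1, under R 4.3.3), with 1 linear model of 6 group means over all 18 libraries followed by eBayes (12 residual degrees of freedom, two-sided, Benjamini-Hochberg over the 10067 genes, threshold 0.05). The difference between genotypes was the interaction contrast of the same fit. Single probe sets were tested by exact two-sided permutation over the 6 libraries in Python 3.11.15. The fits were tested on simulated data. Replicate numbers were not used as pairs, because the labels state no pairing and number 1 alone marks a date shared by both ages. Deviations of same-number libraries of the 2 ages from their group means correlated at 0.0202, -0.0559 and 0.1022. Libraries of different numbers gave -0.1906 to 0.1278. Promoter sequences are from RefSeq.

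The libraries, the 44 gene lists and the tests were chosen with earlier results of these data known, and lists are described by counts and medians only. Named genes were Fmr1, Tardbp, Pcp2 and Rpl10a, the genes past the threshold, and the genes of smallest p to fill 10 per direction among those whose ages do not overlap with a higher mean of at least log2 6. Up to 4 members per list with the same property and, for the difference between genotypes, those past the threshold or the 3 of smallest p in each direction were also named. Alternatives were other blocks, filters, scalings, probe set rules, variance priors, array weights, a covariate, fewer libraries, and leaving out each library in turn.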

Additional observations from a re-analysis of the deposited data

Results flagged for a closer look

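Cyb5rl differed between the genotypes in its 12 minus 8 weeks difference. The level fell by 2.99 on the log2 scale in CGG90 and was at -0.03 in wild type, and the difference between them was -2.96 (SE 0.39; limma interaction, adjusted p = 0.0175). All 3 CGG90 libraries of 8 weeks were above every other library of the series, and the 12-week libraries of both genotypes were alike at 2.67 to 2.78. The gene was tested only because those 3 libraries of 8 weeks passed the filter on low values, so they had to lie above the others. Over the fits that left out libraries or changed a setting, the difference lay between -3.28 and -2.18 and its adjusted p between 0.00147 and 0.685.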

How the results depend on the processing

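Of 2931 values of single named genes other than Fmr1 under an alternative, 2928 kept their direction, which the naming rule fixes for most genes when a library is left out. The 3 that reversed were Ddn at 0.20 without both libraries labelled CGG90 12 weeks replicates 1 and 2, and, with the mean over all probe sets, Tra2a at -0.0495 and Sf3a1 at 0.30. The cause was not tested. Between 12 and 8 weeks the count of genes higher was 1 with the date as a random block, and 0 in the main fit. The count of genes lower was 0 in the fit to 6 libraries, with the replicate block in that fit, with the date as a fixed block, without both libraries labelled replicates 1 and 2, and with a filter at log2 6, which removes Cyb5rl; it was 1 in the main fit. Leaving out each of the 18 libraries in turn gave 0 to 10 higher and 1 to 11 lower. The difference between genotypes had 0 genes lower with the replicate block, the date as a fixed block, quantile normalization, the filter at log2 6, the trended and robust variance prior, and without both libraries. Leaving out 1 library gave 0 to 1 higher and 0 to 2 lower there. The replicate number as a block in the fit of 18 libraries kept the call of Cyb5rl between ages (adjusted p = 0.00137, limma) and changed no other call between ages.

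Fmr1 was at 0.49 without both libraries and at 0.81 on its dimmest probe set, against -3.14, and between -4.96 and -1.97 on leaving out 1 library. Marker list means moved by more than the spread between libraries as follows. Without both libraries the Purkinje mean was 0.0453 (main -0.15), that of oligodendrocyte precursors 0.10 (main 0.60) and that of sex-linked genes 1.08 (main 1.47). With the mean over all probe sets the sex-linked genes were at 0.54 and endothelial and mural cells at -0.0366 (main 0.65). On the shared date these 2 lists were at 2.05 and -0.0224. Genes that did not overlap and differed by at least 2-fold numbered 114 higher and 88 lower with the mean over probe sets, and 92 lower with the filter at log2 6. The median SE of a difference between ages was 0.47.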
